A study of Mus musculus with 24 samples.

Results

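The testis of the mouse makes a large set of trypsin-like serine proteases that are found in few other tissues, and 10 of their genes were followed here through the first wave of spermatogenesis. They were chosen by gene symbol: *Prss21*, *Prss37*, *Prss39*, *Prss41*, *Prss42*, *Prss43*, *Prss44*, *Prss45*, *Prss46* and *Prss55*, which are 10 of the 24456 genes in the count tables. The RNA is labelled as testis RNA of wild-type males (WT) and of males homozygous for an *Atad2* knockout allele (KO) on postnatal days 20, 22, 24 and 26. ATAD2 is a bromodomain ATPase that acts on chromatin, and its loss was studied for effects on transcription as post-meiotic cells appear. In the KO allele a lacZ cassette is fused to the exons ahead of it, and Cre driven ubiquitously by the CMV promoter was used to remove the neo cassette and 1 exon behind it, so the loss is not restricted to germ cells. The same 4 days were sampled in both genotypes, with 4 libraries per genotype on days 20 and 22 and 2 per genotype on days 24 and 26, and all 24 libraries were of total RNA depleted of ribosomal RNA. The tissue labels and the study's methods name testis, whereas the extraction text of the labels speaks of purified spermatogenic cell fractions, and this difference was not resolved. Markers of somatic cells were present in every library, with summed levels of at least 910 CPM for Sertoli, 318 for Leydig, 241 for peritubular and 117 for macrophage lists. Libraries are named by genotype, day and replicate number, as in WT_d20_2.

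Trypsin-like proteases cut proteins with a triad of histidine, aspartate and serine, and are made as inactive precursors that other proteases activate. In the male germ line some of them are stored in the acrosome, the secretory cap of the sperm head, and others are held at the cell surface by a lipid anchor. Some members of the family have lost residues of the triad and are thought to act by binding other proteins. PRSS37 and PRSS55 are known to be needed for the maturation of the sperm surface protein ADAM3 and for the passage of sperm from the uterus into the oviduct. PRSS39 is an acrosomal protease, PRSS21 (testisin) is a lipid-anchored protease of spermatids and sperm, and PRSS42 and PRSS43 have been linked to the progress of meiosis. Spermatocytes fill the tubules before spermatids do, so genes of the 2 kinds of cell appear in testis RNA in that order.

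The 10 genes lie on 5 chromosomes (mm10, GENCODE M21, all annotated as protein-coding). A row of 5 lies on chromosome 9, all on the plus strand and within 58357 bases: *Prss42* (chr9:110798166-110803754), *Prss44* (chr9:110813994-110824523), *Prss43* (chr9:110826690-110831839), *Prss45* (chr9:110834588-110841313) and *Prss46* (chr9:110844506-110856522). *Prss21* (chr17:23868056-23873114, plus strand) and *Prss41* (chr17:23836785-23844172, minus strand) are near each other on chromosome 17. *Prss37* (chr6:40514824-40519508, minus strand), *Prss39* (chr1:34498410-34503063, plus strand) and *Prss55* (chr14:64075438-64090162, minus strand) are each the only member on their chromosome. *Prss41* shares 59 exon bases with *Prss32* on the opposite strand, and *Prss55* overlaps *Prss51* on the opposite strand with 0 shared exon bases, and the counting used the strand. The coding sequences of the 10 were at most 65.9% identical in pairwise alignment, a value reached by *Prss42* with *Prss44* and by *Prss21* with *Prss41*. No stretch of 75 bases of any member transcript occurred in a transcript of another gene, so that reads of one member could be told from those of the others.

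The coding sequences differ at the active site. A search in the annotated reading frame of each coding sequence looked for the 5 codons of glycine, aspartate, serine, glycine and glycine around the serine of the triad. It found them in 6 of the 10 members, against 0.693% of 21793 protein-coding genes. The stretches of 30 bases are shown because they separate members with the usual serine codon from those without this match, with the 5 codons in capitals and the serine codon in their middle.
Prss21: tgctttGGTGACTCGGGAGGAcccttggcc
Prss39: tgccgaGGAGACTCTGGGGGCcccctggtc
Prss41: tgcagtGGTGACTCAGGAGGAcccttggtc
Prss42: tgccagGGAGATTCTGGAGGCccgatgtcc
Prss44: tgccagGGAGATTCTGGGGGCcccctggtc
Prss55: tgccagGGTGACAGTGGGGGAccgcttgtc
The serine codon was of the TCN kind in 5 of these and AGT in *Prss55*. No such match was found in *Prss37*, *Prss43*, *Prss45* and *Prss46*. The codons around the histidine of the triad (threonine or serine, alanine, alanine, histidine, cysteine) were found in 8 members, the exceptions being *Prss37* and *Prss55*, and in 0.624% of the same genes. A missing match says only that these codons do not follow each other in the transcript examined.

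The depth of the libraries was sufficient for all 10 genes to pass the filter on low counts, as did 17170 of the 24456 genes in all. Between 10709667 and 19491935 read pairs per library were assigned to a gene. Library WT_d20_2 was the shallowest and stood apart by its share of read pairs with several alignments, 13.7% against a median of 8.16%. KO_d22_4 had the lowest such share, 4.74%, and the lowest peritubular (-0.935) and macrophage (-1.026) marker levels of the series; leaving it out changed neither call of day 22. *Atad2* itself was below WT in KO at each day with no overlap between the groups, for example 30.8, 37.1, 36.0 and 32.2 CPM (counts relative to the TMM-scaled library total) in KO and 92.7, 171, 76.4 and 94.0 CPM in WT at day 20. Markers of spermatogonia, spermatocytes, spermatids and somatic cells of the testis were all detected. Epididymal markers reached summed levels of 50.4 to 716 CPM in at least 1 library of each of the 8 groups and were near 0 in others, with no group free of them.

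The summed level of the 10 genes grew with age in both genotypes. The sum of the 10 was 113 ± 25.8 CPM (SD, n = 4) in WT at day 20, 214 ± 13.1 (n = 4) on day 22, then 270.0 ± 17.1 (n = 2) on day 24 and 419 ± 27.1 (n = 2) on day 26. In KO it was 144 ± 17, 218 ± 43.0, 298 ± 12.5 and 565 ± 37.7 CPM. Its make-up changed as well: *Prss37* and *Prss55* together gave a mean of 0.0447%, 0.187%, 6.82% and 26.9% of the WT sum on the 4 successive days. In RNA from many cells at once, a larger number of cells that express a gene and more RNA of it per cell cannot be told apart.

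**Figure D1:**
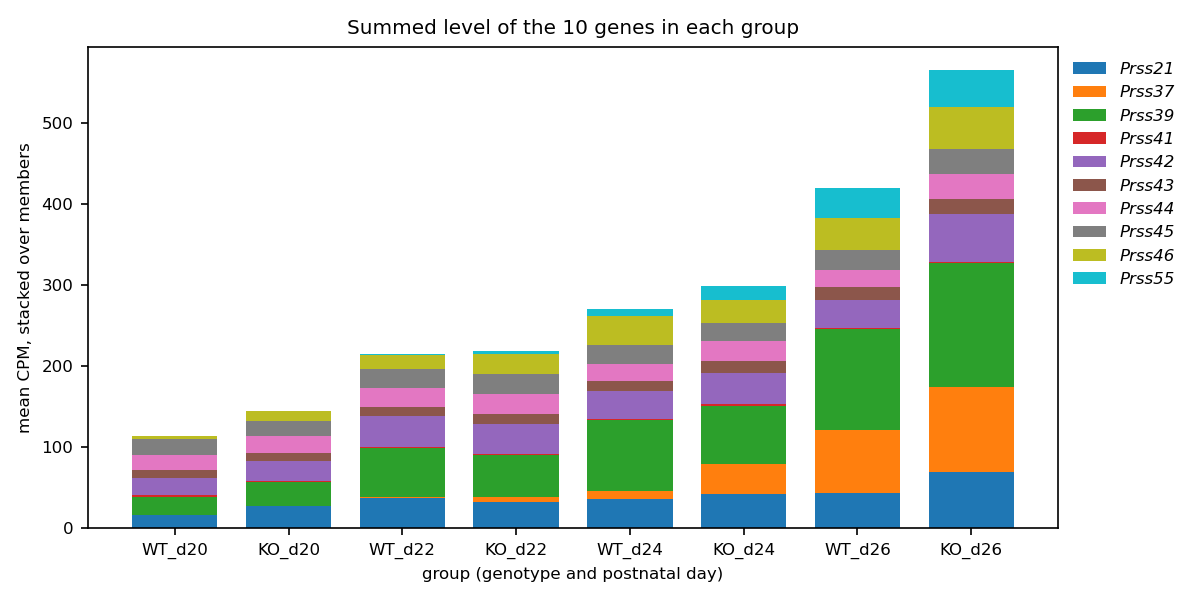
Mean CPM of the 10 genes, stacked, in each of the 8 groups (n = 4 libraries at days 20 and 22, n = 2 at days 24 and 26). The sum rises from 113 CPM in WT at day 20 to 419 CPM in WT and 565 CPM in KO at day 26, and *Prss37* and *Prss55* are visible only from day 22 in KO and day 24 in WT.

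In WT testis 6 of the 10 genes followed an early or a late course. *Prss21*, *Prss39*, *Prss42* and *Prss46* rose between days 20 and 22, while *Prss37* and *Prss55* were at 0 to 7 counts per library up to day 22 and rose by day 24. *Prss43* rose over the whole course from day 20 to day 26, *Prss44* and *Prss45* were not called by edgeR in any WT comparison, and *Prss41* was low at every age. By the quasi-likelihood test of edgeR, 4 of 10 members were called higher at day 22 than at day 20 (adjusted p under 0.05), where 12.9% of all genes tested were called higher. The median log2 fold change of the members was 0.865, or 0.613 with *Prss55* set at its lower bound, against -0.024 over all genes. From day 22 to day 24, 2 of 10 were called higher against 5.88% of all genes, and the members' median was 0.002 against 0.004 over all genes. From day 24 to day 26 edgeR called 0 members, with 2 at an unadjusted p under 0.05, and DESeq2 called 0, where 0.262% of all genes were called higher by edgeR. Over the whole course from day 20 to day 26, 7 of 10 were called higher, against 24.4% of all genes, with a median of 1.08 against -0.044. In KO testis 9 of 10 rose between days 20 and 26, all but *Prss41*, where 27.2% of all genes were called higher and the members' median was 1.331 against -0.069 over all genes.

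*Prss46*, the last of the 5 members in the chromosome 9 row, rose 4.95-fold between days 20 and 22 in WT. Its level was 3.77, 2.42, 2.43 and 5.90 CPM in the 4 WT libraries of day 20 and 21.3, 13.4, 20.2 and 17.4 CPM in those of day 22, which do not overlap (log2 fold change 2.31 ± 0.316 SE, adjusted p = 0.000117). It stood at 41.3 and 30.6 CPM at day 24 (log2 0.99 ± 0.334 against day 22, adjusted p = 0.099, and 0.0387 without KO_d20_2) and at 36.7 and 44.6 CPM at day 26. *Prss39*, which encodes the acrosomal protease, also rose early. It had 30.6, 12.1, 19.5 and 27.4 CPM at day 20 and 66.0, 50.5, 64.1 and 64.4 CPM at day 22 (2.73-fold, log2 1.45 ± 0.224, adjusted p = 0.000225). Its lowest day 20 library was WT_d20_2, and it reached 129 and 120.0 CPM at day 26. *Prss21* (testisin) went from 18.5, 14.7, 11.8 and 19.0 CPM to 39.9, 36.5, 35.7 and 36.7 CPM over the same 2 days (2.32-fold, log2 1.22 ± 0.155, adjusted p = 6.63e-05). *Prss42* had 25.5, 14.5, 18.8 and 23.8 CPM at day 20 and 37.3, 34.5, 34.4 and 42.1 CPM at day 22 (1.79-fold, log2 0.84 ± 0.166, adjusted p = 0.00142). After day 22 *Prss42* stayed level in WT, with 32.8 and 35.7 CPM at day 26. Each of these 4 early rises passed the test in all 24 fits that leave out 1 library.

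*Prss37* and *Prss55*, the ADAM3-linked pair, came later. *Prss37* had 0, 0, 2 and 1 counts in the WT libraries of day 20 and 2, 0, 2 and 3 counts in those of day 22, then 118 and 165 counts at day 24 and 1636 and 817 counts at day 26. On the CPM scale these are at most 0.153 up to day 22, 7.32 and 11.2 at day 24, and 94.8 and 58.6 at day 26. *Prss55* had 0 counts in all 4 WT libraries of day 20, 7, 4, 3 and 4 counts at day 22, 156 and 124 counts at day 24, and 750 and 426 counts at day 26. Both genes therefore crossed from at most 7 read pairs to at least 118 between days 22 and 24 (*Prss37* log2 6.28 ± 1.22, adjusted p = 0.00529; *Prss55* log2 4.93 ± 0.923, adjusted p = 0.00566). For day 22 against day 20, *Prss55* was not called by edgeR (adjusted p = 0.206) and was called by DESeq2 (0.00782), on 18 against 0 counts. The call of *Prss55* for day 24 against day 22 was lost without WT_d24_1 (log2 4.82, adjusted p = 0.0509). Against the floor of 3 counts per library, which is 0.235 CPM in WT at day 20, *Prss55* was at least 157-fold higher in WT at day 26. From day 24 to day 26 the increases of *Prss37* (log2 3.05 ± 0.959) and *Prss55* (2.03 ± 0.835) did not pass by edgeR (adjusted p = 0.228 and 0.507, with 2 libraries per day). Without KO_d22_2, *Prss37* did (adjusted p = 0.0319).

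The remaining members had smaller values. *Prss43* had 13.8, 6.95, 9.54 and 12 CPM in WT at day 20 and 15.8 and 16.6 CPM at day 26 (log2 0.62 ± 0.190, adjusted p = 0.0126), a call that was lost without either WT library of day 26 (adjusted p = 0.0513 without WT_d26_1 and 0.0883 without WT_d26_2). The day 26 against day 20 call of *Prss42* in WT (log2 0.72 ± 0.198, adjusted p = 0.00572) was lost without WT_d26_2 (adjusted p = 0.0604). *Prss44* had a mean of 18.0 ± 5.37 CPM (n = 4) in WT at day 20 and 20.5 ± 0.599 (n = 2) at day 26 (log2 0.19 ± 0.178, adjusted p = 0.405). *Prss45* had 19.6 ± 3.01 and 24.5 ± 4.23 CPM (log2 0.33 ± 0.148, adjusted p = 0.0814). Both were near the threshold in some fits: *Prss44* passed it without WT_d20_1 (adjusted p = 0.0295), as it did for day 22 against day 20 (log2 0.39 ± 0.146, adjusted p = 0.0648 with all libraries, and 0.64, 0.00126 without WT_d20_1), and *Prss45* without WT_d20_4 (0.0464) or WT_d26_1 (0.0412). DESeq2 called *Prss44* for day 22 against day 20 (log2 0.40, adjusted p = 0.0399) and *Prss45* for day 26 against day 20 (0.36, 0.0455). *Prss41* ranged from 14 to 41 counts per library in the whole series and showed no call in any comparison. In KO, where *Prss44* was called higher at day 26 than at day 20 (log2 0.56 ± 0.174, adjusted p = 0.0108), the call was lost without either KO library of day 26 (adjusted p = 0.0641 and 0.0665).

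**Figure D2:**
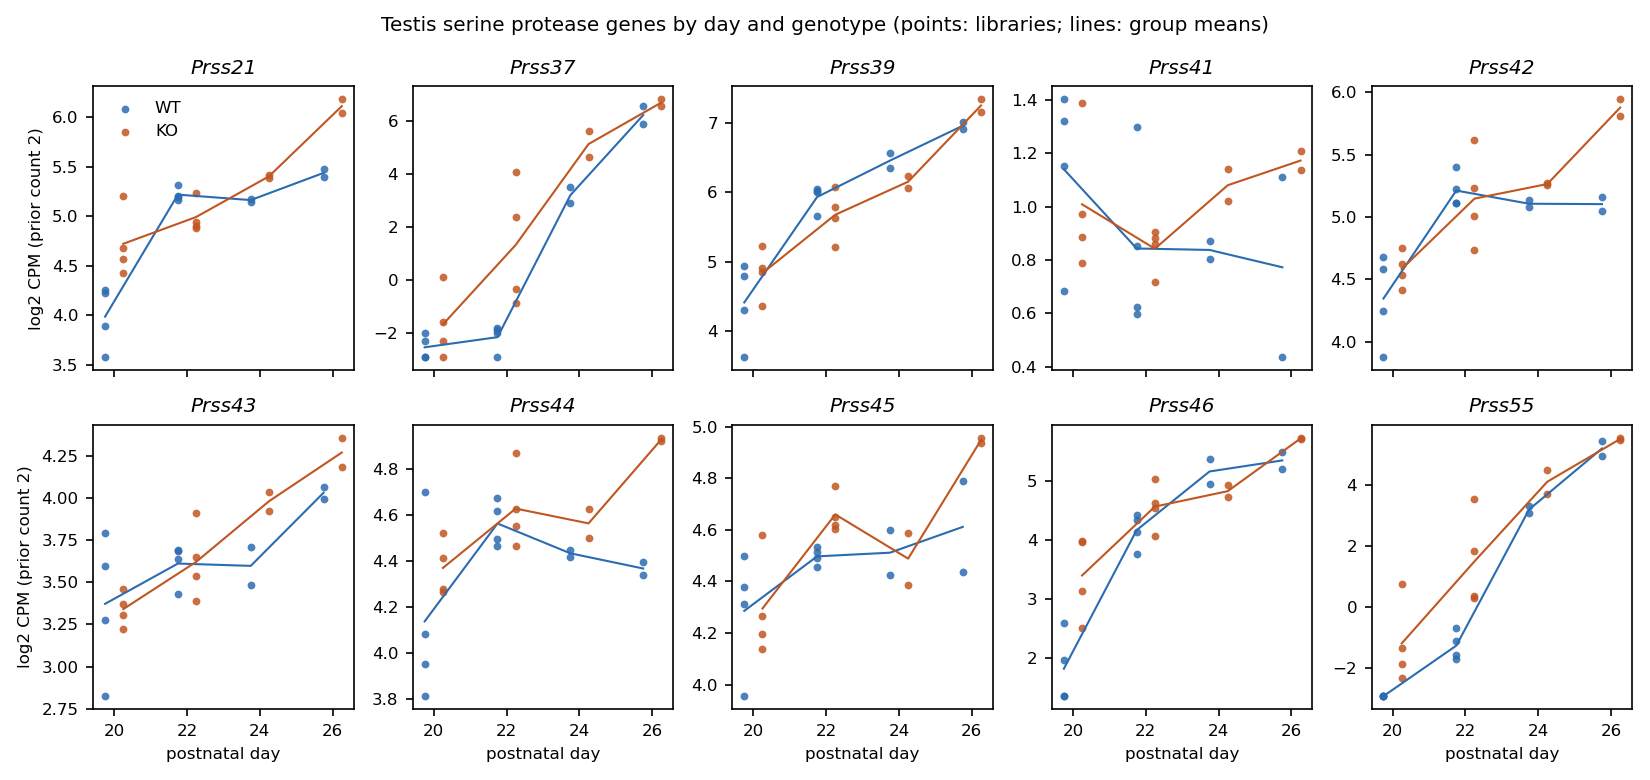
Log2 CPM (prior count 2) of each gene in the 24 libraries by postnatal day, with WT in blue, KO in orange, 1 point per library and lines through group means; the y axis differs between panels. *Prss37* and *Prss55* span the widest range and their KO libraries are spread at day 22, whereas *Prss41* stays within 14 to 41 counts.

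The order of the genes by level changed with these courses. On the scale of mean CPM per kilobase of exon, *Prss39* led in WT at day 20 with 16.8 ± 6.22 (SD, n = 4), followed by *Prss45* with 15.8 ± 2.43 and *Prss42* with 13.1 ± 3.15, and the ranges of these 3 overlapped from each to the next. *Prss21* (7.21), *Prss44* (5.10), *Prss43* (4.53) and *Prss46* (2.7) formed a second run of overlapping neighbours, and *Prss41* (0.799) stood apart above *Prss37* (0.0418) and *Prss55* (0). At day 26 the order on the same scale was *Prss39* with 93.4 ± 4.87 (n = 2), *Prss37* with 68.3 ± 22.8 and *Prss46* with 30.2 ± 4.11, of which the first 2 did not overlap with their next neighbour. *Prss55* (26.4), *Prss42* (21.6), *Prss45* (19.8) and *Prss21* (19.5) followed with overlapping ranges, and *Prss43* (6.97), *Prss44* (5.81) and *Prss41* (0.615) closed the order, each apart from the next. So *Prss37* went from rank 9 to rank 2 and *Prss46* from rank 7 to rank 3.

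The members' levels were also compared from library to library. Over the 24 libraries, which share days and genotypes, Pearson's r of log2 CPM was 0.981 between *Prss37* and *Prss55*, 0.927 between *Prss39* and *Prss46* and 0.898 for *Prss21* with each of *Prss39* and *Prss46*. Pairs of an early and a late gene reached similar values, with 0.866 for *Prss46* and *Prss55* and 0.857 for *Prss39* and *Prss55*, against 0.828 for the early pair *Prss42* and *Prss46*. *Prss41* had r of -0.301 with *Prss45* and -0.27 with *Prss46*. Among all genes tested, those closest to *Prss37* were *Spata31d1b* and *Tuba8* (both r = 0.996), and those closest to *Prss55* were *Rnf133* (0.995) and *Fhl5* (0.994). *Prss46* lay closest to *Mas1* (0.996) and *Catsper1* (0.994), the latter a subunit of the sperm calcium channel. *Prss39* lay closest to *Poc1b* and *Efcab6* (both 0.981), *Prss21* to *Rfx8* (0.968) and *Gm7444* (0.967), and *Prss42* to *4930513N10Rik* (0.966) and *Kif3b* (0.965). The best matches were weaker for *Prss43* (*Pcdha2*, 0.934; *Amdhd2*, 0.925), *Prss44* (*Pld6*, 0.917; *Nicn1*, 0.904), *Prss45* (*Cenpn*, 0.894; *Ints10*, 0.893) and *Prss41* (*Dlgap4*, 0.725; *Kif1a*, 0.711). These values describe shared courses over age and carry no test.

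At day 20, *Prss21* and *Prss46* were higher in KO than in WT. Of the 10 members, 2 were called higher and 0 lower by edgeR, where 2.98% of all genes tested were called higher. In 2 members, *Prss21* and *Prss55*, every KO library was above every WT library, against 3.03% of all genes. The members' median log2 fold change was 0.287, the same with *Prss55* at its bound, against 0.005 over all genes. *Prss21* had 36.9, 21.4, 25.5 and 23.7 CPM in KO against 18.5, 14.7, 11.8 and 19.0 CPM in WT, so each KO library lay above each WT library (1.68-fold, log2 0.75 ± 0.155, adjusted p = 0.011). *Prss46* had 8.63, 5.56, 15.4 and 15.7 CPM in KO against 3.77, 2.42, 2.43 and 5.90 CPM in WT (3.10-fold, log2 1.63 ± 0.317, adjusted p = 0.00904). Here the lowest KO library, KO_d20_2, fell below the highest WT library, WT_d20_4. Both calls held in all 24 fits without 1 library, with log2 fold changes of 0.56 to 0.85 for *Prss21* and 1.43 to 1.99 for *Prss46*. With day 20 fitted alone the sizes were 0.74 and 1.63 and neither passed (adjusted p = 0.257 and 0.16).

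The late genes at day 20 were read at the edge of detection. *Prss55* had 2, 1, 4 and 23 counts in the KO libraries and 0 in each of the 4 WT libraries. Its KO mean of 0.508 CPM was at least 2.16-fold higher than the WT floor, but without KO_d20_4 the mean was 0.158 CPM, under the floor. The edgeR call did not pass (adjusted p = 0.301), whereas DESeq2 passed it (adjusted p = 0.0033). *Prss37* had 1, 0, 3 and 14 counts in KO and 0, 0, 2 and 1 in WT, a ratio of summed counts of 5.43 (95% exact counting interval 1.59 to 28.8), and did not pass (adjusted p = 0.774). Without KO_d20_4 its KO mean was 0.0902 CPM, also under the floor, and the log2 fold change went from 2.29 to 0.62. In both genes KO_d20_4 gave most of the KO counts. The other 6 members differed little at this age: the fitted log2 fold changes lay between -0.16 (*Prss41*) and 0.37 (*Prss39*), and none passed.

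At day 22 the called genes were others, *Prss37* and *Prss55*, and the early pair no longer differed by the test. EdgeR called 2 of 10 members higher and 0 lower, where 1.26% of all genes were called higher, and the members' median was 0.046 against 0.010 over all genes. Every KO library was above every WT library in 3 members, *Prss37*, *Prss45* and *Prss55*, against 3.64% of all genes. *Prss37* had 7, 282, 77 and 10 counts in KO against 2, 0, 2 and 3 in WT, or 0.424, 17, 5.07 and 0.670 CPM against at most 0.153 CPM. Every KO library was above every WT library, and the KO libraries differed among themselves by more than an order of magnitude. The ratio of summed counts was 53.5 (95% exact counting interval 25.7 to 134), and the fitted log2 fold change was 5.61 ± 1.17 (adjusted p = 0.018). *Prss55* had 18, 189, 52 and 17 counts in KO against 7, 4, 3 and 4 in WT, again without overlap, with a ratio of 15.3 (9.48 to 26.1) and a log2 fold change of 3.85 ± 0.876 (adjusted p = 0.0314). KO_d22_2 held most of the KO counts of both genes. Without it the log2 fold changes were 4.10 (adjusted p = 0.0747) and 2.67 (0.112). Both calls were also lost without WT_d22_2 (adjusted p = 0.0564 and 0.0822), WT_d22_3 (0.075 and 0.114) or WT_d22_4 (0.0923 and 0.134), and that of *Prss55* without WT_d22_1 (0.0506), without the low-count filter (0.0523) and with day 22 fitted alone (0.125). *Prss37* was not tested with day 22 fitted alone, because the low-count filter removed it there. DESeq2 called *Prss55* at day 22 and gave *Prss37* no adjusted p. *Prss21* had 29.9, 37.6, 29.4 and 30.7 CPM in KO and 39.9, 36.5, 35.7 and 36.7 CPM in WT (log2 -0.22 ± 0.151, adjusted p = 0.597), and *Prss46* had 16.5, 32.6, 23.1 and 24.4 CPM against 21.3, 13.4, 20.2 and 17.4 CPM (log2 0.42 ± 0.283, adjusted p = 0.593). The other 6 members had log2 fold changes from -0.23 (*Prss39*) to 0.165 (*Prss45*).

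Stage scores of the libraries are given beside these differences. The stage score is the mean centred log2 CPM of 8 round spermatid markers minus that of 8 pachytene spermatocyte markers. At day 20 it was -1.284, -2.125, -0.243 and 0.245 in KO against -2.878, -2.547, -3.021 and -1.930 in WT, and KO_d20_4, with the most counts of *Prss37* and *Prss55*, had the highest score. *Prss21* did not follow that order within the KO libraries, since its highest value, 36.9 CPM, was in KO_d20_1. At day 22 the score was 0.016, 1.262, 0.701 and 0.119 in KO against -0.150, -0.331, -0.159 and -0.375 in WT, and KO_d22_2 was again the highest. At day 22 the scores of the genotypes did not overlap, and at day 20 only KO_d20_2 lay below a WT library, WT_d20_4. The pachytene markers alone, all 8 detected, had a mean centred log2 level of -0.319, -0.514, -0.279 and -0.156 in KO and -0.657, -1.285, -0.989 and -0.689 in WT at day 20, without overlap, as for *Prss21*, and their part in that difference was not tested. The mean score of 8 elongating spermatid markers, all 8 detected, was 0.603 ± 1.863 (SD, n = 4) in KO and -1.726 ± 0.582 (n = 4) in WT at day 22. The libraries overlapped, with KO_d22_1 at -1.026 and WT_d22_1 at -0.989. The summed level of these markers ranged from 112 to 741 CPM in KO and from 51.3 to 125 CPM in WT. With the stage score added to the model, the KO differences were 0.60 for *Prss21* (adjusted p = 0.619) and 0.34 for *Prss46* (0.939) at day 20, and 1.76 for *Prss37* (0.572) and 1.20 for *Prss55* (0.379) at day 22. The score is measured in the same libraries and moves with both genotype and day, so stage and genotype cannot be told apart in these samples.

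**Figure D3:**
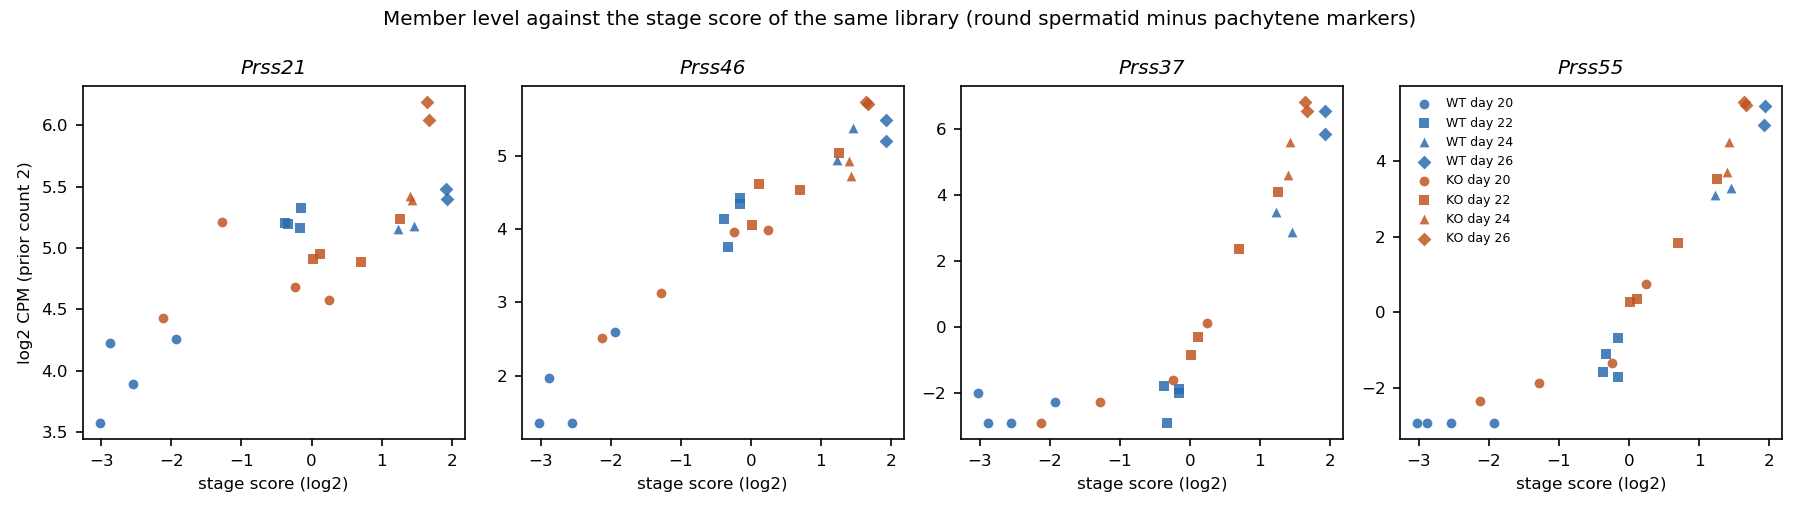
Log2 CPM (prior count 2) of *Prss21*, *Prss46*, *Prss37* and *Prss55* against the stage score (round spermatid minus pachytene markers, log2) of the same library, 1 point for each of the 24 libraries, with WT in blue, KO in orange and shapes for days. The KO libraries of days 20 and 22 reach scores of 0.245 and 1.262, above all WT libraries of the same day.

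At days 24 and 26, with 2 libraries per genotype, no member passed the test. At day 24 edgeR called 0 of 10, with 1 at an unadjusted p under 0.05 and 0 by DESeq2, where 0.0175% of all genes were called higher, and the members' median was 0.199 against -0.009 over all genes. *Prss37* still had more counts in KO, 714 and 377 against 118 and 165 (log2 2.0 ± 0.932, adjusted p = 0.941). *Prss55* had 326 and 198 counts against 156 and 124 (log2 0.97 ± 0.823, adjusted p = 1.0). The other 8 ranged from -0.35 (*Prss46*) to 0.38 (*Prss43*). With 2 libraries per group, complete separation is frequent: both KO libraries were above both WT libraries in 7 members and in 22.6% of all genes. At day 26 edgeR called 0 of 10, with 3 at an unadjusted p under 0.05 and 0 by DESeq2, where 0.0% of all genes were called higher. All 10 members had a positive fitted difference at day 26, as had 45.7% of all genes, with a median of 0.37 against -0.037 over all genes. Both KO libraries were above both WT libraries in 9 members, all but *Prss37*, and in 27.8% of all genes. *Prss39* and *Prss46* were the 2 members separated at days 24 and 26 in opposite directions, as were 8.58% of all genes. By then the late pair were close, *Prss37* at 94.3 and 114 CPM in KO and 94.8 and 58.6 CPM in WT, and *Prss55* at 43.9 and 46.7 CPM against 43.4 and 30.6 CPM. The 3 members at an unadjusted p under 0.05 were *Prss42* with 55.8 and 61.5 CPM in KO against 32.8 and 35.7 CPM in WT (log2 0.78 ± 0.231, adjusted p = 0.208), *Prss21* with 65.7 and 72.7 against 42.1 and 44.5 CPM (0.68 ± 0.212, 0.234), and *Prss44* with 30.5 and 30.2 against 20.1 and 20.9 CPM (0.56 ± 0.205, 0.291). With day 26 fitted alone each of the 3 passed (adjusted p = 0.00268, 0.00395 and 0.0143), in a fit that called 1236 of 16465 genes higher. Stage scores at day 26 were 1.677 and 1.648 in KO and 1.936 and 1.925 in WT, and at day 24 they were 1.428 and 1.401 in KO and 1.459 and 1.227 in WT. The mean centred log2 level of the elongating spermatid markers at day 24 was 4.109 and 3.187 in KO against 2.294 and 2.256 in WT, without overlap, as for *Prss37* and *Prss55*. That of the pachytene markers at day 26 was 0.719 and 0.839 in KO against 0.400 and 0.554 in WT, without overlap. Other lists were separated as well: at day 24 Leydig markers were higher in KO (0.613 and 0.754 against -0.455 and 0.055) and peritubular markers lower (0.060 and -0.031 against 0.137 and 0.344). At day 26 elongating spermatid markers were higher in KO (5.147 and 5.153 against 5.007 and 4.459), and spermatogonia (-0.418 and -0.452 against -0.252 and -0.195), Sertoli (-0.396 and -0.517 against -0.258 and -0.362) and peritubular markers (-0.134 and -0.287 against 0.308 and 0.027) were lower. The summed Sertoli level at day 26 went the other way, with 1140 CPM in both KO libraries and 910 to 1040 CPM in WT. The part of these marker lists in the members' differences was not tested.

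Averaged over the 4 days, *Prss21*, *Prss37* and *Prss55* were higher in KO. EdgeR called 3 of 10 higher and 0 lower, where 3.52% of all genes were called higher, and all 10 had a positive value, as had 51% of all genes, with a median of 0.259 against 0.005 over all genes. The log2 fold changes were 0.36 ± 0.0925 for *Prss21* (adjusted p = 0.0261), 2.58 ± 0.707 for *Prss37* (0.0356) and 2.77 ± 0.672 for *Prss55* (0.0268). With the stage score in the model they were 0.31 (adjusted p = 0.173), -0.15 (0.958) and 0.85 (0.315), so that *Prss37* changed sign, and without the low-count filter *Prss37* was at 2.60 (0.0545). The mean for *Prss55* includes day 20, where WT had 0 counts, and is no bound. Over the 24 fits without 1 library, *Prss21* passed in 18 with an adjusted p of 0.0115 to 0.0618, *Prss37* in 9 with 0.0124 to 0.257, and *Prss55* in 19 with 0.0125 to 0.0858. The calls of *Prss21* and *Prss55* were both lost without KO_d24_1, WT_d24_2, KO_d26_2 or WT_d26_2. *Prss21* was also lost without KO_d24_2 or WT_d26_1 and *Prss55* without KO_d20_4, and the 15 fits that lost *Prss37* left out KO_d20_3, KO_d20_4, WT_d20_2, WT_d20_3, WT_d22_2, WT_d22_3, WT_d22_4 or any library of days 24 and 26. *Prss46* (0.52 ± 0.175, adjusted p = 0.0752), *Prss42* (0.28 ± 0.1, 0.0947) and *Prss44* (0.24 ± 0.0888, 0.101) came next. *Prss46* passed without KO_d20_2, WT_d20_4 or KO_d22_1 (lowest adjusted p = 0.0219), *Prss42* without KO_d22_1 (0.0401) and *Prss44* without WT_d20_1 (0.0113). DESeq2 called *Prss46* (adjusted p = 0.0355), *Prss42* (0.0491) and *Prss44* (0.0467) in the mean. Whether the KO difference changed between days was asked in a joint test. EdgeR called 0 of 10, with 4 at an unadjusted p under 0.05, and DESeq2 called 1, *Prss21*, where 0.00582% of all genes were called by edgeR. The adjusted p values of the 4 were 0.284 for *Prss21*, 0.346 for *Prss46*, 0.497 for *Prss55* and 0.503 for *Prss37*, so by edgeR none of them passed.

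**Figure D4:**
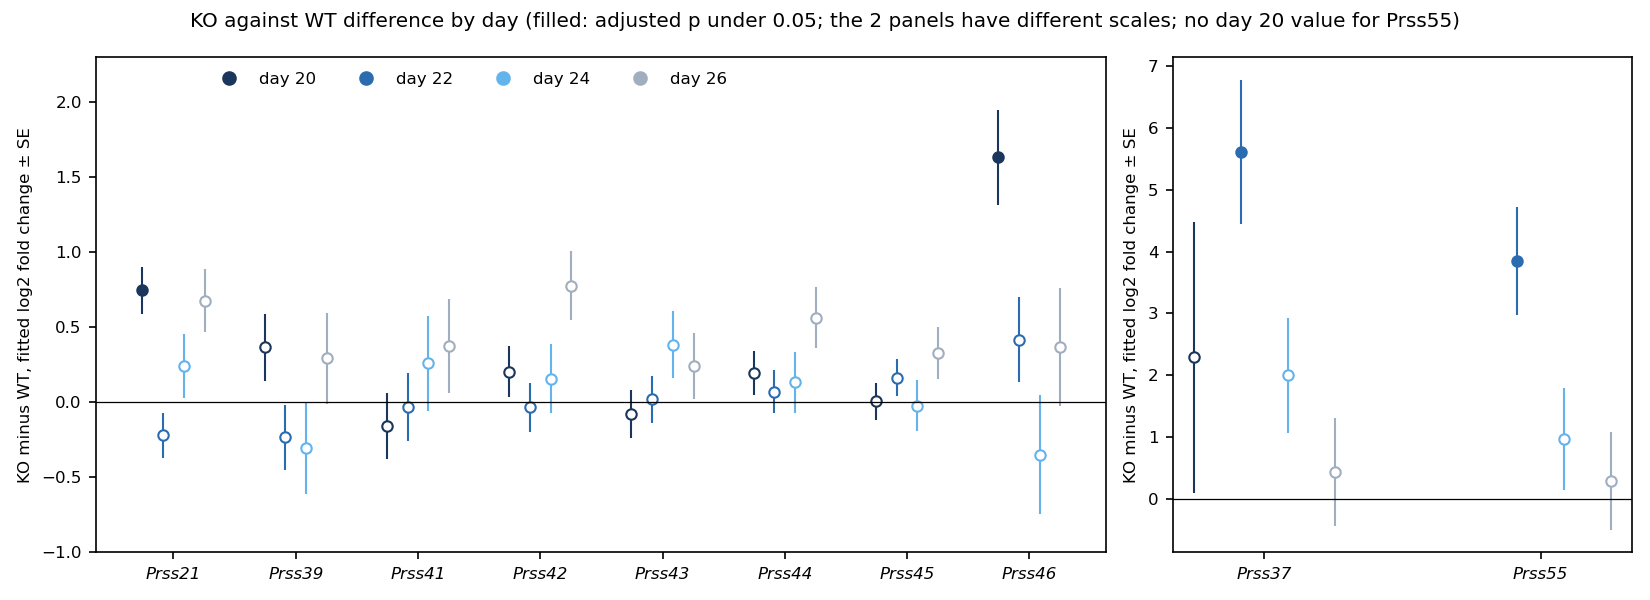
Fitted log2 fold change of KO against WT ± SE for each gene at each of the 4 days (edgeR), with filled points where the adjusted p is under 0.05; the y axis of the right panel is wider, and *Prss55* has no day 20 point because all its WT libraries had 0 counts. The 4 filled points are *Prss21* (0.75) and *Prss46* (1.63) at day 20 and *Prss37* (5.61) and *Prss55* (3.85) at day 22.

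The 5 genes of the chromosome 9 row had fitted differences of unlike size at day 20, and differences between the 5 were not tested. At day 20 only *Prss46* of the 5 was called, and the fitted differences of *Prss42*, *Prss44*, *Prss43* and *Prss45* were 0.21, 0.20, -0.08 and 0.01. At day 26 all 5 were positive, from 0.24 (*Prss43*) to 0.78 (*Prss42*), and none was called. Over the 24 libraries their pairwise Pearson's r of log2 CPM ran from 0.621 (*Prss43* with *Prss45*) to 0.838 (*Prss42* with *Prss44*), as a description. Another 17 protein-coding genes are annotated within 300 kb of the row, of which 14 were tested, 16 being in the count tables. At day 20, 1 of the 14 was called higher in KO, *Ccrl2*, a chemokine-binding receptor (log2 1.19 ± 0.324, adjusted p = 0.045), against 2.98% of all genes. At the other days and in the mean 0 were called by edgeR, with 0 to 2 at an unadjusted p under 0.05. *Ccrl2* went the other way at day 22, with every KO library below every WT library (log2 -1.06 ± 0.325, adjusted p = 0.0869). In WT from day 20 to day 26, 3 of the 14 rose, where 24.4% of all genes were called higher, and 4 fell. Among those that fell was *Prss50* (chr9:110857967-110864629, plus strand), another testis protease gene, next after *Prss46* among the protein-coding genes. Its log2 fold change was -0.85 ± 0.259 (adjusted p = 0.0123), while *Prss42*, *Prss43* and *Prss46* rose.

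The stretches before the start sites were examined for the members that differed between genotypes. RefSeq (GRCm38.p6) gave promoters for 7 of the 10; *Prss43*, *Prss44* and *Prss55* had no entry. The 250 bases ahead of the start are shown for *Prss21* and *Prss46*, called at day 20, and for *Prss37*, called at day 22. Capitals mark GTTGCC read on the minus strand, part of the site of RFX factors, which are known to act on genes of meiosis and spermatids.
Prss21, chr17:23867822-23868071 (plus strand): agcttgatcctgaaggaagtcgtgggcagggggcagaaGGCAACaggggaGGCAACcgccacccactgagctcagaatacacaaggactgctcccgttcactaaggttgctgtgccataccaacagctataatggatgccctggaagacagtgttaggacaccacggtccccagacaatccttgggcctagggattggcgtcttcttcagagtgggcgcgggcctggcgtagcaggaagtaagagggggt
Prss46, chr9:110844256-110844505 (plus strand): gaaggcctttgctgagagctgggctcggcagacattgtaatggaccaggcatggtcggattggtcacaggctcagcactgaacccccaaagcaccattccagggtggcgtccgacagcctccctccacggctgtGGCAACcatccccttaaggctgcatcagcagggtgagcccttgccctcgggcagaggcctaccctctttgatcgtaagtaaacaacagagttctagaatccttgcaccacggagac
Prss37, chr6:40519509-40519758 (minus strand): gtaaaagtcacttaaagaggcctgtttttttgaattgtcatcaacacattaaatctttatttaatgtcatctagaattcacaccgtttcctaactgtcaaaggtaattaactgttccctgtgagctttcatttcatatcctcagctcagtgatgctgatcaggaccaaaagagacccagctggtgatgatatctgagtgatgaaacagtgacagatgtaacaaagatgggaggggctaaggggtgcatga
GTTGCC on either strand was found at bases -212 to -207 and -200 to -195 of *Prss21* and -116 to -111 of *Prss46*, and in none of the other 5 members matched. It is present in 10.5% of 27025 promoters of the same length. TGACGT, the core of the site of CREM-type factors, and the longer TGACGTNA, which contains it, were in 0 of the 7, against 6.56% and 2.65% of promoters. CCAAT was in *Prss21*, *Prss39*, *Prss42* and *Prss46* (34.5% of promoters), GGGCGG in *Prss42* (32.9%) and TATAAA in none of the 7 (13.0%). Both strands were searched for each. A match describes the letters only, and the stretches to print were chosen after the values were seen.

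The members were set beside other genes of the same processes. Of 10 other testis trypsin-like protease genes, 2 were called higher in KO at day 20 and 0 lower, *Prss54* (log2 3.96 ± 0.723, adjusted p = 0.00733) and *Prss40* (1.09 ± 0.225, 0.0106), with a median of 0.237. Over all genes 2.98% were called higher, with a median of 0.005. *Prss40*, which encodes a second acrosomal protease, had 6.96, 3.79, 6.54 and 6.64 CPM in KO and 2.12, 1.90, 2.72 and 4.32 CPM in WT, so that KO_d20_2 and WT_d20_4 again crossed. *Acr*, which encodes acrosin, the main acrosomal protease, had a difference of 0.25 ± 0.247 at day 20 (adjusted p = 0.78) and rose 3.46-fold from day 20 to day 26 in WT (adjusted p = 3.82e-05). At day 22, 0 of these 10 were called by edgeR. The 3 at an unadjusted p under 0.05 were *Prss52* (log2 4.27 ± 1.36, adjusted p = 0.118), *Prss51* (3.86 ± 1.35, 0.15) and *Prss54* (1.25 ± 0.462, 0.178). *Prss52* had 2, 55, 11 and 1 counts in KO against 2, 0, 0 and 1 in WT, and *Prss51* had 0, 14, 8 and 0 against 0, 1, 0 and 0. The highest value of all 3 was in KO_d22_2, as for *Prss37* and *Prss55*. In the mean of the 4 days *Prss40* (log2 0.61 ± 0.126, adjusted p = 0.00859) and *Prss54* (1.27 ± 0.314, 0.0249) were called, where 3.52% of all genes were called higher. In WT from day 20 to day 26, 6 rose and 1 fell, where 24.4% of all genes were called higher. The median was 2.154 against -0.044 over all genes.

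Of 15 genes linked to ADAM3 maturation or sperm migration, 1 was called higher in KO at day 20 and 2 at day 22, with none lower. Over all genes 2.98% and 1.26% were called higher at these days. At day 20 it was *Pdilt*, a chaperone of the protein disulfide isomerase family that acts on ADAM3, with 3.19, 1.18, 10.4 and 14.5 CPM in KO against 0.707, 0.527, 0.173 and 1.44 CPM in WT (log2 3.37 ± 0.741, adjusted p = 0.0158), and KO_d20_2 lay below WT_d20_4. At day 22 they were *Calr3*, which encodes the chaperone calsperin (log2 1.82 ± 0.440, adjusted p = 0.0333), and *Pmis2* (1.81 ± 0.451, 0.0385). *Calr3* had 2.24, 15.2, 6.66 and 2.48 CPM in KO and 1.41, 1.84, 1.86 and 2.35 CPM in WT, which overlap. *Pmis2* had 2.66, 16.8, 7.51 and 3.22 CPM in KO and 2.46, 2.09, 2.45 and 1.64 CPM in WT, which do not. The highest value of both was in KO_d22_2, as for *Prss37* and *Prss55*. In the mean of the 4 days *Calr3* was the 1 gene of the list called (log2 0.91 ± 0.246, adjusted p = 0.0329), where 3.52% of all genes were called higher. *Adam3* itself was abundant earlier, at 260.0 ± 39.6 CPM (SD, n = 4) in WT at day 20, and its difference was 0.46 ± 0.164 at day 20 (adjusted p = 0.17) and 0.01 ± 0.163 at day 22 (0.995). In WT from day 20 to day 26, 11 of the 15 rose, where 24.4% of all genes were called higher, and 2 fell. Of 4 serine protease inhibitor genes, *Serpine2*, which encodes a secreted inhibitor of trypsin-like proteases, was lower in KO in the mean of the 4 days (log2 -0.54 ± 0.104, adjusted p = 0.00461), and 0 were called at single days by edgeR, with 0 to 2 at an unadjusted p under 0.05.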

How the data were processed

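Total RNA, labelled as testis, was extracted with TRIzol and sequenced as strand-specific read pairs. The authors aligned reads to mm10 with STAR 2.7.11b and counted pairs in exons with HTSeq, by strand, discarding pairs with several alignments; the version of the gene models was not given in the sources used here. What they deposited are raw counts for each gene symbol, neither normalized nor pooled. Rows that name no gene, of which pairs outside exons took 45.1% to 58.5% of a table, were left out of library sizes. The study describes its replicates as biological and names fewer for day 20 than the labels, which were followed.

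Differences in counts were tested in edgeR 4.0.16 by quasi-likelihood (TMM, filterByExpr at a minimum count of 10, robust, 8 group coefficients, 24 libraries), two-sided, with Benjamini-Hochberg adjustment over 17170 genes and a threshold of 0.05. As a check of the code, the fit was also run on simulated data, and no result here rests on that run. Alternatives were other size factors, no filter, DESeq2 1.42.0, a replicate block, the stage score as covariate, each day alone and each library left out. Levels per kilobase used GENCODE M21 exon lengths. Floors (3 counts) and intervals cover counting error only. All members were tested in every comparison, and those not described singly are given by their range or count. Falls in the context and neighbour lists are given without a share over all genes. *Acr*, *Adam3*, *Pdilt* and genes of the context lists called for KO against WT (at most 4 per list) were named by rule. Of the neighbours, *Ccrl2* and *Prss50* were chosen after their values were seen, as were *Prss51* and *Prss52* of the context lists. Members and lists were chosen with earlier results of these data known.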

Additional observations from a re-analysis of the deposited data

Results flagged for a closer look

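Within groups of 4 libraries, 3 member values lay far from the other libraries of their group by Dixon's ratio; chance alone flags about 1 in 20 groups, and 37 were examined. *Prss21* in KO_d22_2 was 37.6 CPM, with the next library at 30.7 CPM. *Prss39* in WT_d22_2 was 50.5 CPM, with the next library at 64.1 CPM. *Prss55* in KO_d20_4 was 1.56 CPM, with the next library at 0.264 CPM.

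In 2 members all KO libraries lay on opposite sides of WT at days 24 and 26, with 2 libraries per group, as was the case in 8.58% of all genes tested. For *Prss39* the log2 fold change was -0.307 at day 24 and 0.294 at day 26. For *Prss46* it was -0.348 at day 24 and 0.366 at day 26. The difference between these 2 days was not tested by itself. The joint test over all 4 days gave an adjusted p of 0.764 for *Prss39* and 0.346 for *Prss46* (edgeR).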

How the results depend on the processing

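Of 2927 refitted values of 100 member differences, 2830 kept their direction where called and their side of the threshold, 74 lost the call, 21 gained one and 2 reversed; the sign changed in 77, all but these 2 in differences that were called in neither fit. Both reversals were of *Prss37* with the stage score as covariate, to -0.15 in the mean of the 4 days and to -4.97 for WT at day 26 against day 20. With that covariate the number of members called fell to 0 for KO against WT at days 20 and 22 and in the mean, to 0 for the 3 WT contrasts of day 22 against 20, 24 against 22 and 26 against 20, and to 3 for KO day 26 against 20. Calls over all genes fell as well: with the covariate, genes called higher went from 511 to 0 at day 20, from 217 to 7 at day 22, from 604 to 43 in the mean, from 2210 to 4, 1010 to 0 and 4183 to 0 in these WT contrasts, and from 4672 to 747 in KO. Some sizes hardly moved with it, such as *Prss42* (0.84, adjusted p = 0.329) and *Prss21* (1.01, 0.22) for WT day 22 against 20 and *Prss42* (0.73, 0.81) and *Prss43* (0.61, 0.843) for WT day 26 against 20, while *Prss46* fell to 0.71 (0.442) and 0.36 (0.93). With each day fitted alone, on fewer libraries, the number of members called was 0 at day 20, 0 at day 22 and 3 at day 26; there the low-count filter removed *Prss37* at days 20 and 22 and *Prss55* at day 20, so these were not tested. Over all genes these fits called 0 of 15265 higher at day 20, 9 of 15739 at day 22 and 1236 of 16465 at day 26. Without the low-count filter 1 member was called at day 22. DESeq2 called 1 at day 22, 5 in the mean, 1 in the joint test and 1 for WT day 24 against 22; it gave *Prss37* no adjusted p. Leaving out 1 library gave 0 to 2 calls at day 22, 0 to 5 in the mean, 1 to 3 for WT day 24 against 22 (1 without WT_d24_1 and 3 without KO_d20_2) and 0 or 1 for WT day 26 against 24. The cause of these changes was not tested.

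With a replicate block the calls were 0 at day 22 (*Prss37* 5.30, adjusted p = 0.0617; *Prss55* 3.75, 0.0924) and 1 in the mean (*Prss37* 2.53, 0.0686; *Prss55* 2.74, 0.059). Same-numbered KO and WT libraries had correlated deviations of 0.071 to 0.41 at day 20 and -0.459 to -0.025 at day 22, so not every pair exceeded 0.1 at either day and the numbers were not taken to pair the samples. As a hint from the data only, at day 20 3 of 4 KO libraries correlated best with their own number and at day 22 none did. Values of *Prss37* and *Prss55* before day 24 rest on few counts.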
